A study of Mus musculus with 18 samples.

Results

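Mammary glands of 5-week-old virgin female mice that lack the tyrosine kinase domain of Ron (RonTK-/-) were compared with glands of RonTK+/+ females of the same age. The arrays were chosen by their labels alone, 3 of each genotype, and they are 6 of the 18 arrays of the series. The other 12 arrays hold the same genotypes at 6 and 7 weeks, 3 arrays to a group. Total RNA of whole glands was hybridised to Affymetrix Mouse Genome arrays, which carry probe sets for most mouse genes. The labels name no treatment and do not say whether the arrays of a group come from separate animals. The p-values therefore measure the spread between arrays within a group, pooled over all 18, which may not be a spread between animals. The labels describe a deletion of the tyrosine kinase domain and name no strain background. A whole gland holds epithelium, fat, stroma, lymph node and whatever muscle is taken with it, and fewer cells of a type cannot be told apart from less RNA per cell.

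Ron, the product of Mst1r, is a receptor tyrosine kinase of the Met family whose ligand is macrophage-stimulating protein, encoded by Mst1. The ligand is secreted as an inactive precursor and cut to its active form by serine proteases such as hepsin (Hpn) and matriptase (St14). Ron is made by epithelial cells and by some resident macrophages, and signals through Grb2, Gab1, phosphoinositide 3-kinase and the MAP kinases. At the ages sampled, ducts grow from the nipple through the fat pad under estrogen, growth hormone and local growth factors, and macrophages gather around the growing tips.

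Values below are log2 of the deposited ratio, so that 0 lies near the RonTK+/+ median of the series, and probe sets that share a gene were averaged. Arrays are given in the order 1, 2, 3, and whether the numbers pair arrays across genotypes is not known here. Differences are RonTK-/- minus RonTK+/+ with their standard error, from limma fitted to all 18 arrays, and adjusted p-values are Benjamini-Hochberg over the 18193 genes tested. The term called means an adjusted p under 0.05.

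The 6 arrays differed in tissue makeup within each genotype. Ckm, the creatine kinase of muscle, read 0.00, -4.41 and 0.30 in RonTK+/+ and 0.61, 0.82 and -4.27 in RonTK-/- arrays. Acta1, skeletal muscle actin, read 0.00, -6.64 and 0.11 against 0.14, 0.12 and -5.62. The -6.64 stands at the lowest ratio of the data, 0.01, so it may be a bound rather than a reading. In RonTK+/+ array 2, 20 probe sets stood at that ratio, and in RonTK-/- array 3, 12 did. RonTK+/+ array 2 and RonTK-/- array 3 were thus low in muscle transcripts and the other 4 were not. The mean over 22 skeletal muscle genes was -5.59 in RonTK+/+ array 2 and -5.25 in RonTK-/- array 3, and between 0.01 and 0.55 in the other 4. These means include values at the lowest ratio, and 12 of the 22 genes remained once probe sets at that ratio were left out. Over 15 B lymphocyte genes the RonTK+/+ arrays averaged 0.10, 0.90 and -2.20, and the RonTK-/- arrays -0.37, -2.19 and 0.31. The low arrays here were RonTK+/+ array 3 and RonTK-/- array 2. A mean over 13 T lymphocyte genes was low in the same arrays, at -2.41 and -2.33. RonTK+/+ array 3 also stood apart in hair keratins, with Krt25 at 5.34 against 0.12 and 0.07 in the other RonTK+/+ arrays. Each genotype thus held 1 array low in muscle and 1 low in lymphocyte genes. The ratios keep no absolute level, so the labelled tissue could not be checked against markers of the gland.

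**Figure D1:**
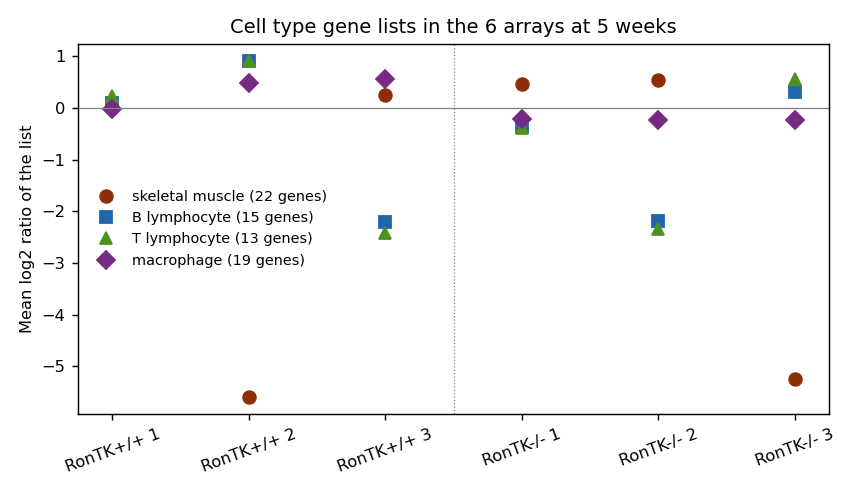
Mean log2 ratio of 4 cell type gene lists in each of the 6 arrays at 5 weeks, with the number of genes in each list; RonTK+/+ arrays stand left of the dotted line. The skeletal muscle mean is -5.59 in RonTK+/+ array 2 and -5.25 in RonTK-/- array 3, and the macrophage mean is lower in every RonTK-/- array than in any RonTK+/+ array.

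The probe set of Mst1r did not separate the genotypes. It read -0.04, -0.22 and 0.08 with the kinase and -0.20, -0.43 and 0.22 without it, and the ranges overlapped. The difference was -0.08 ± 0.23 (SE, n = 3 per group; limma, adjusted p = 0.999). The gene has 1 probe set, whose place relative to the deletion is unknown here, and it cannot serve to check the genotype labels. Mst1, the ligand, differed by -0.12 ± 0.09. Of 21 genes of Ron and Met signalling, 0 were called and 0 had an unadjusted p under 0.05, against 3.42% of all genes at that p. Of these genes 10 lay above 0 and 11 below, with a median difference of -0.01 beside 0.01 for all genes. The activating proteases Hpn and St14 differed by 0.18 ± 0.21 and 0.01 ± 0.27. The related receptor Met and its ligand Hgf differed by 0.02 ± 0.16 and -0.11 ± 0.14. Among the adaptors, Grb2 differed by -0.11 ± 0.08 and Gab1 by 0.03 ± 0.11.

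Of all genes tested, 2 were called, 0.011% of 18193, and both were lower in RonTK-/- glands. Zfp949, a zinc finger protein, read -0.33, 0.52 and 0.05 in the RonTK+/+ group against -2.39, -2.30 and -2.21 in the RonTK-/- group. The groups lay far apart, with every RonTK-/- array below every RonTK+/+ array. It fell by 2.38 ± 0.16, or 5.22-fold (limma, adjusted p = 1.36e-05). Pxylp1, a phosphatase that acts on xylose in the linker of proteoglycan chains, read 0.01, -0.07 and -0.10 against -0.97, -1.43 and -1.07. It fell by 1.10 ± 0.11, or 2.14-fold (limma, adjusted p = 0.00066). Its 3 probe sets did not read alike, at -1.53, -1.63 and -0.14, while those of Zfp949 read -2.41 and -2.36. Both genes were as low at the later ages, with Zfp949 at -2.16 and -2.05 and Pxylp1 at -1.20 and -1.24 at 6 and 7 weeks. Both calls were lost when only the 6 arrays were fitted (adjusted p = 0.281 and 0.489) or under quantile normalization (adjusted p = 0.787 for both), with the direction kept. Pxylp1 was also no longer called with the replicate number as a block (adjusted p = 0.0687). In the pair of muscle-low arrays alone, 1 array against 1, it differed by -0.99.

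Both genes lie on chromosome 9, which also holds Mst1r. That chromosome carries 5.54% of the genes with a known place, and 10 of the 20 genes with the smallest p-values. At an unadjusted p under 0.001 stood 10 of its 1006 genes, and 10 of the 17139 genes elsewhere. In the order of the chromosome's genes Mst1r is number 794, and these 10 run from Mapk6 at number 572 to Srprb at number 725. Besides the called pair, C920006O11Rik differed by 0.92 ± 0.16, 9330159M07Rik by 1.16 ± 0.18, Gsta4 by -0.96 ± 0.21 and Cep162 by -0.73 ± 0.15, and none of these 4 was called. Gsta4 is a glutathione transferase for lipid aldehydes, and Cep162 a protein of the centriole.

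The differences that ranked these genes came from the 5-week arrays, while the spread behind every p-value was estimated over all 18 arrays, so p-values at the 3 ages share it. All 10 genes on chromosome 9 differed the same way at 6 weeks with an unadjusted p under 0.05, and 9 of 10 did so at 7 weeks. Of the other 10 genes in the top 20, 1 did so at 6 weeks and 1 at 7 weeks, beside 6.15% and 9.75% of all genes at that p in either direction. The exception among those 10 was Mid1, a ubiquitin ligase gene on the X chromosome. It differed by -0.45 ± 0.07 at 5 weeks, -0.46 at 6 and -0.51 at 7. Its 3 probe sets did not read alike at 5 weeks, at -1.31, 0.04 and -0.07. Over all genes, 17 had genotypes that did not overlap in the same direction at each of the 3 ages, 0.0934% of those tested, and 12 of the 17 lie on chromosome 9.

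**Figure D2:**
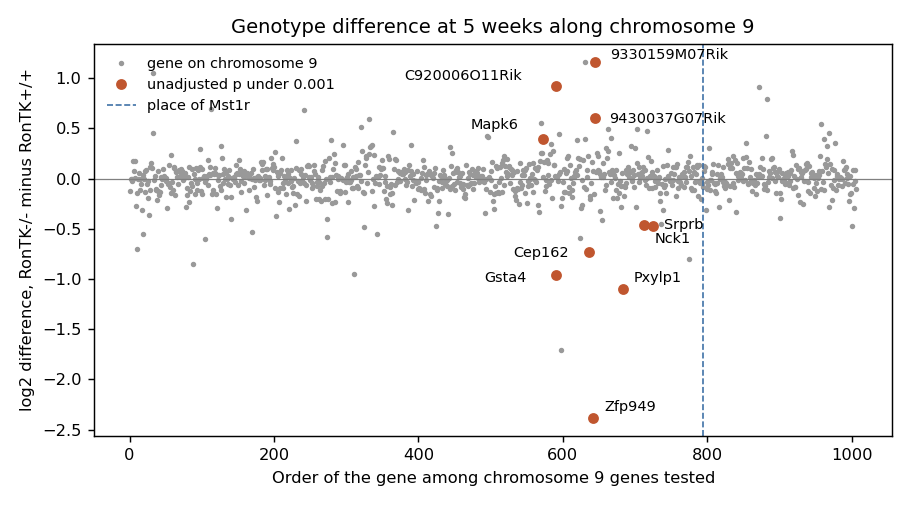
Difference between genotypes at 5 weeks, in log2, for the 1006 genes of chromosome 9 in their order along it. The 10 filled points with an unadjusted p under 0.001 lie between numbers 572 and 725, and the dashed line marks Mst1r at number 794.

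Of 45037 probe sets, 13 were called, 0.0289%, and all 10 of them with a gene symbol lie on chromosome 9. They stand for 8 genes. A probe set of Srprb, a subunit of the receptor for the signal recognition particle, read 0.00, -0.26 and -0.13 in RonTK+/+ and -1.34, -1.38 and -1.48 in RonTK-/- arrays. It fell by 1.27 ± 0.08 (limma, adjusted p = 4.94e-06), while the others of Srprb differed by 0.42 ± 0.13 and -0.55 ± 0.16. A probe set of Nck1, an adaptor of receptor tyrosine kinases, fell by 1.21 ± 0.10 (limma, adjusted p = 0.000124), while its other 2 differed by -0.13 and -0.04. For Tmem30a, a subunit of lipid flippases, 1 probe set rose by 0.81 ± 0.10 (limma, adjusted p = 0.00883) and the others ranged from -0.44 to 0.09. For Mapk6, an atypical MAP kinase, 1 rose by 0.94 ± 0.14 (limma, adjusted p = 0.0423), and the others differed by 0.30, 0.30 and 0.03. Probe sets of Srprb, Nck1 and Tmem30a thus disagreed within a gene.

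Genes of macrophages read lower in RonTK-/- glands as a list, though 0 of them was called. All 19 measured members lay below 0, beside 46.8% of all genes, and their median difference was -0.58. An unadjusted p under 0.05 was reached by 10 of 19 in that direction, beside 1.9% of all genes, and 6 of 19 had every RonTK-/- array below every RonTK+/+ array, beside 3.09%. Lgals3, the lectin galectin-3, read 0.24, 0.24 and 0.32 in RonTK+/+ and -0.45, -0.49 and -0.47 in RonTK-/- arrays. Arrays of a genotype lay close together, and it differed by -0.74 ± 0.14 (limma, adjusted p = 0.231). Cd68, a lysosomal glycoprotein of macrophages, read 0.01, 0.66 and 0.64 against -0.48, -0.43 and -0.41, and differed by -0.88 ± 0.23 (limma, adjusted p = 0.919). Ms4a7 read 0.04, 0.63 and 0.88 against -0.36, -0.30 and -0.24. In Cd68 and Ms4a7, RonTK+/+ array 1 lay nearest the RonTK-/- arrays.

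The Fc receptor gene Fcgr3 read -0.02, 0.92 and 1.03 against -0.29, -0.07 and -0.46, a difference of -0.92 ± 0.24. Adgre1, which encodes a surface marker of mouse macrophages, differed by -0.65 ± 0.19, and Csf1r, the receptor for the main macrophage growth factor, by -0.54 ± 0.20. Cd163, a scavenger receptor, read -0.02, 1.08 and 1.66 against -0.39, 0.45 and -0.31, so its genotypes overlapped. Members with the smallest differences were Itgam at -0.16 ± 0.21 and Mrc1, the mannose receptor, at -0.18 ± 0.27. The list averaged -0.02, 0.49 and 0.56 in RonTK+/+ against -0.22, -0.23 and -0.24 in RonTK-/- arrays. Without the pair of muscle-low arrays the median difference was -0.51, in that pair alone it was -0.67, and with each array left out in turn it ranged from -0.45 to -0.75. The count at an unadjusted p under 0.05 was 6 when RonTK+/+ array 3 was left out, and 6 without the muscle-low pair. At 6 and 7 weeks the list's median was 0.16 and 0.07. The difference at 5 weeks minus the mean of the later ages was largest by p for Lgals3, at -1.05, and did not pass (limma, adjusted p = 0.411). Over all genes 0 passed that test, and 1077, or 5.92%, had an unadjusted p under 0.05.

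**Figure D3:**
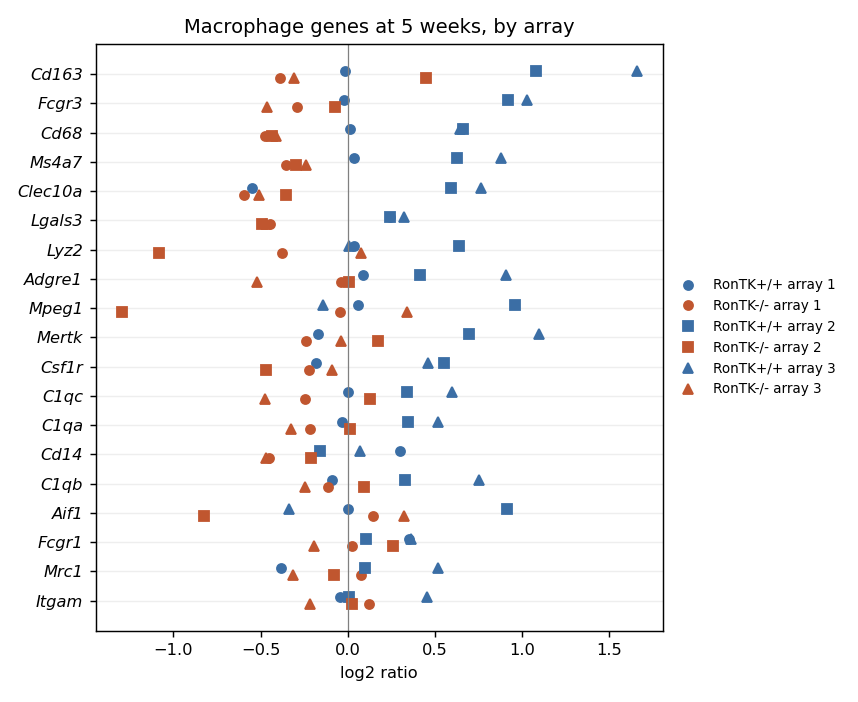
Log2 ratio of each of the 19 macrophage genes in the 6 arrays at 5 weeks, blue for RonTK+/+ and orange for RonTK-/-, with a marker shape for the array number. Lgals3, Cd68, Ms4a7, Fcgr3, Adgre1 and Cd14 have every RonTK-/- array below every RonTK+/+ array.

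Complement and lysosome genes lay on the same side. All 10 complement genes were below 0, with a median of -0.46, and 3 had an unadjusted p under 0.05, beside 1.9% of all genes in that direction; C1qa, C1qb and C1qc are also in the macrophage list. The anaphylatoxin receptor genes were lowest, with C3ar1 at 0.04, 0.19 and 0.73 against -0.63, -0.24 and -0.58, and C5ar1 at 0.10, 0.12 and 0.76 against -0.24, -0.02 and -0.35. They differed by -0.80 ± 0.21 and -0.53 ± 0.18. At 6 weeks C3ar1 and C5ar1 differed by -0.38 and 0.01, and at 7 weeks by 0.44 and 0.50. In both, every RonTK-/- array lay above every RonTK+/+ array at 7 weeks. All 16 lysosome and phagocytosis genes were below 0, with a median of -0.25, and 6 had an unadjusted p under 0.05, beside the same 1.9%. Among them were the cathepsin gene Ctsb at -0.27 ± 0.10, the hexosaminidase gene Hexa at -0.35 ± 0.12 and Cybb, the oxidase subunit of phagocytes, at -0.72 ± 0.30. None was called. Leaving out each array in turn gave a median of -0.32 to -0.63 for complement and of -0.19 to -0.38 for the lysosome list. The complement count at that p was 9 when RonTK+/+ array 1 was left out, 1 when RonTK+/+ array 3 was and 5 when RonTK-/- array 3 was. The lysosome count was 2 when RonTK+/+ array 2 or 3 was left out, 3 when RonTK-/- array 1 was, and 3 without the muscle-low pair.

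The B and T lymphocyte lists differed in sign with the array left out. The B lymphocyte median was -0.36, but it was 0.31 when RonTK+/+ array 2 was left out and -1.24 when RonTK+/+ array 3 was. The T lymphocyte median was -0.26, and became 0.32 and -1.20 in the same way. Genes of dendritic cells and MHC class II had a median of -0.26, which ranged from -0.62 to 0.04 with each array left out in turn. Cd74, the invariant chain, read 0.05, 0.74 and -1.15 against -0.40, -2.09 and 0.21. With the skeletal muscle and B lymphocyte means of each array as covariates, a setting chosen after seeing the data, the macrophage median was -0.53, the complement median -0.45 and the lysosome median -0.27. Neutrophil and mast cell genes had a median of -0.02. Of 19 inflammatory cytokine genes, 16 lay below 0 with a median of -0.10. Ccl8, a chemokine of monocytes, read -0.07, 0.69 and 0.86 against -0.50, -0.20 and -1.25. Arg1, an arginase of alternatively activated macrophages, read -1.34, -1.68 and -0.36 against 0.10, -0.29 and -0.04, a difference of 1.05 ± 0.59.

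Interferon-stimulated genes were also lower on balance, with 0 called. All 22 measured members lay below 0, with a median of -0.44; 4 had an unadjusted p under 0.05, beside 1.9% of all genes in that direction, and in 7 every RonTK-/- array was below every RonTK+/+ array, beside 3.09%. Irf7, a transcription factor that amplifies the interferon response, read 0.63, 0.78 and 1.11 in RonTK+/+ and -0.67, 0.09 and -0.20 in RonTK-/- arrays. It differed by -1.09 ± 0.40 and had no overlap between genotypes. Bst2, or tetherin, read 0.34, 0.28 and 0.63 against -0.36, -0.05 and -0.18, and Xaf1 read 0.25, 0.21 and 0.28 against -0.22, -0.15 and -0.19. Ifit1 overlapped, at 1.12, -0.04 and 0.60 against -0.46, 0.36 and -0.21, and Cxcl10 differed by -0.03 ± 0.46. The list averaged 0.45, 0.23 and 0.25 in RonTK+/+ against -0.29, -0.09 and -0.05 in RonTK-/- arrays. With each array left out in turn the median ranged from -0.37 to -0.47, in the pair of muscle-low arrays alone it was -0.23, and under quantile normalization -0.70. The count at an unadjusted p under 0.05 was 9 under quantile normalization, 1 when RonTK+/+ array 3 or RonTK-/- array 1 was left out, and 7 when RonTK-/- array 2 was. At 6 weeks all 22 lay above 0, with a median of 0.43, and at 7 weeks the median was -0.09.

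The promoters of these genes are shown because interferon-driven transcription runs through a known element, whose core is GAAA, any 2 bases, then GAAA again. RefSeq promoter sequence (GRCm38.p6) was at hand for 18 of the 22 genes, and 9 of them held the core on either strand in the 250 bases before the start site. Over all 27025 genes with a promoter, 3.46% held it. Of the other lists searched, it was in 3 of 13 lysosome promoters (Ctss, Lamp1 and Cybb) and in Aif1 of 14 macrophage promoters. Of the 9 interferon genes with the core, Gbp2, Gbp3, Oas1a, Ifit3 and Cxcl10 are not shown. Bst2, Rsad2 and Stat2 have the smallest unadjusted p of the 9, and Ifit1 was shown besides. Stretches around the core follow for these 4: Bst2 (chr8:71537532-71537657, minus strand), Rsad2 (chr12:26456508-26456627, minus strand), Stat2 (chr10:128270248-128270340, plus strand) and Ifit1 (chr19:34640730-34640868, plus strand). They run 5′ to 3′ in the direction of the gene, and capitals mark the core on either strand, with overlapping matches joined.
Bst2: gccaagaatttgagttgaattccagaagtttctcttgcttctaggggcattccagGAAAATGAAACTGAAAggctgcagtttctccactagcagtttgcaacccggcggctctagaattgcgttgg
Rsad2: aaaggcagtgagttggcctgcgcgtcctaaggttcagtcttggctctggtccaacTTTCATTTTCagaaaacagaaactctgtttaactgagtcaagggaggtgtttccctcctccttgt
Stat2: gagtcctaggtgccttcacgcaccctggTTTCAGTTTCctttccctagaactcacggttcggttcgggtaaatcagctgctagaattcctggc
Ifit1: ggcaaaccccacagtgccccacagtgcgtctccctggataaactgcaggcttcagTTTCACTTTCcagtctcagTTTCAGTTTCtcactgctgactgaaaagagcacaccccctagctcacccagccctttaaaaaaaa
Bst2 holds 2 overlapping matches and Ifit1 holds 2 separate ones. The other 3 motifs had been searched in the same window over this list and those for macrophages, complement, lysosome, lipogenesis and sterol synthesis, and the interferon core was taken for display after its matches were seen. A composite element of ETS and interferon factors that runs from GGAA to GAAA with C and T between matched none of the genes in these 6 lists, beside 0.144% of all genes. TCACNCCAC matched Mlxipl and Hmgcs1, beside 1.22% of all genes, and GAGGAAGT matched C1qc and Elovl6, beside 2.79%. A match is a description of the sequence and says nothing of binding in these glands.

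Genes of fat and sterol synthesis lay above 0 on balance, and more so in the muscle-low pair. Of 24 lipogenesis genes 22 were above 0, beside 53.2% of all genes, with a median of 0.34; 2 had an unadjusted p under 0.05, beside 1.53% of all genes in that direction, and 0 was called. Me1, the malic enzyme that supplies NADPH, read -0.25, -2.05 and -1.89 in RonTK+/+ and -0.30, -0.69 and 0.29 in RonTK-/- arrays, a difference of 1.16 ± 0.42. Fasn, fatty acid synthase, read -0.01, -1.32 and -1.57 against -0.22, -0.77 and 0.11. RonTK+/+ arrays 2 and 3 were thus low and array 1 was not. Gpam, which starts glycerolipid synthesis, differed by 0.48 ± 0.17 with no overlap, and 2 of the 24 genes had every RonTK-/- array above every RonTK+/+ array, beside 5.12% of all genes. The list's median was 0.09 without the muscle-low pair and 0.71 in that pair alone. The count at an unadjusted p under 0.05 was 7 under quantile normalization and 0 without the muscle-low pair. It was 8 when RonTK+/+ array 1 was left out, 7 when RonTK-/- array 2 was, 0 when RonTK+/+ array 2 was, and 1 when RonTK+/+ array 3 or RonTK-/- array 3 was.

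Of 16 sterol synthesis genes 15 were above 0, with a median of 0.30, and 4 had an unadjusted p under 0.05, beside the same 1.53%. Idi1, an isomerase of the mevalonate pathway, read -0.88, -1.12 and -1.0 against -0.11, -0.67 and -0.01, and differed by 0.74 ± 0.24 with no overlap. Sqle, squalene epoxidase, read -0.49, -1.10 and -0.60 against -0.03, -0.30 and -0.30. Cyp51 differed by 0.60 ± 0.27 and Hmgcs1 by 0.47 ± 0.18. The median was 0.13 without the muscle-low pair, 0.72 in it alone and 0.51 under quantile normalization. The count at that p was 9 under quantile normalization and 0 without the muscle-low pair. It was 1 when RonTK+/+ array 2 or RonTK-/- array 1 was left out, 2 when RonTK-/- array 3 was and 7 when RonTK-/- array 2 was. With the muscle and B lymphocyte means as covariates the medians were 0.36 for lipogenesis and 0.31 for sterol synthesis. Markers of white fat itself had a median of -0.02. Brown fat genes had a median of 0.28, which was -0.03 without the muscle-low pair; Ucp1, the uncoupling protein of brown fat, read 0.22, -4.12 and 0.61 against 0.99, 0.26 and 0.63. All 17 respiratory chain genes lay above 0 at a median of 0.19, with 0 at an unadjusted p under 0.05.

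Genes of the epithelium and of ductal growth showed no call. Of 20 luminal genes 14 were above 0, at a median of 0.19 that turned to -0.10 without RonTK+/+ array 2 and was 0.45 without RonTK-/- array 3. Pgr, the progesterone receptor, read 0.48, -0.80 and -0.31 in RonTK+/+ and 1.21, 1.48 and -0.16 in RonTK-/- arrays, a difference of 1.05 ± 0.47 with overlap. Of 23 pubertal ductal growth genes 13 were above 0, at a median of 0.00. Within it the estrogen receptor Esr1 differed by -0.13 ± 0.16, the growth hormone receptor Ghr by 0.03 ± 0.15 and the EGF family ligand Ereg by 0.43 ± 0.21. Csf1, the macrophage growth factor, differed by 0.00 ± 0.09. Among 16 MAP kinase feedback genes and targets, Mapk6 differed by 0.39 ± 0.08 and Spry4, an inhibitor of the pathway, by 0.26 ± 0.09, and the median was 0.04. Cell cycle genes had a median of 0.06, which was 0.21 without the muscle-low pair and -0.25 in it alone. Milk protein genes varied widely within genotype, with Csn2, beta-casein, at -0.39, -3.01 and 0.25 against 0.07, 1.47 and -5.16.

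The genes with the largest differences, among those with an unadjusted p under 0.01 and no overlap, follow with the list of major urinary proteins. Mup10, a major urinary protein, read 0.00, -0.32 and -0.73 in RonTK+/+ and 1.46, 2.07 and 2.14 in RonTK-/- arrays. Its genotypes lay well apart, and it differed by 2.24 ± 0.39 (limma, adjusted p = 0.147); at 6 and 7 weeks it differed by 0.44 and 0.07. Mup5 and Mup3 were also apart, at 0.53 ± 0.18 and 0.21 ± 0.08. Thus 3 of 4 list members were apart in that direction, beside 5.12% of all genes. The 2 probe sets of Mup3 did not read alike, at -0.05 and 0.46. The fourth member of the list, Lcn4, differed by -0.05 ± 0.10. Genes of this family are near copies of each other, so which member a probe set reads is uncertain. Stat5a, the transcription factor of prolactin signalling, read -0.03, -0.29 and -0.39 against 0.48, 0.61 and 0.16, a difference of 0.65 ± 0.20. F3, tissue factor, differed by 0.91 ± 0.27, the transporter gene Slc16a12 by 0.89 ± 0.20, and Oxct1, an enzyme of ketone body use, by 0.41 ± 0.11. At 6 and 7 weeks Oxct1 differed by -0.32 and 0.04, and at 6 weeks every RonTK-/- array lay below every RonTK+/+ array.

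On the lower side, Ddx43, a helicase gene on chromosome 9, read 0.00, 1.21 and -1.17 against -1.65, -1.91 and -1.51, a difference of -1.71 ± 0.55. Its RonTK+/+ arrays spread over a wide range. The myeloid receptor genes Clec7a, Cd300lb and Clec4a3 were among the 10 lowest besides Fcgr3. Clec7a, the beta-glucan receptor dectin-1, read 0.26, 0.93 and 0.48 against -0.42, -1.22 and -0.05. Cd300lb differed by -1.03 ± 0.21 (limma, adjusted p = 0.392) and Clec4a3 by -0.89 ± 0.28. At 6 and 7 weeks Clec4a3 differed by -0.15 and 0.11, and Cd300lb by -0.25 and 0.88. At 7 weeks every RonTK-/- array lay above every RonTK+/+ array in Cd300lb. Hal, histidine ammonia-lyase, differed by -1.23 ± 0.35. Fam13a read 0.16, 1.16 and 0.69 against -1.05, 0.06 and 0.04, a difference of -0.99 ± 0.32. At 6 and 7 weeks Fam13a differed by 0.56 and -0.003, and at 6 weeks every RonTK-/- array lay above every RonTK+/+ array. Outside these, Mmp2, a gelatinase of the stroma, read -0.25, 0.21 and 0.49 against -0.74, -0.28 and -0.37, a difference of -0.62 ± 0.19. Hmox1, heme oxygenase, read 1.09, 0.00 and 0.19 against -0.23, -0.06 and -0.34, a difference of -0.64 ± 0.29, and Klf4 differed by -0.41 ± 0.15. Mmp2 and Hmox1 differed by -0.06 and 0.49 at 6 weeks, and by 0.36 and 0.86 at 7 weeks. In both, every RonTK-/- array lay above every RonTK+/+ array at 7 weeks.

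**Figure D4:**
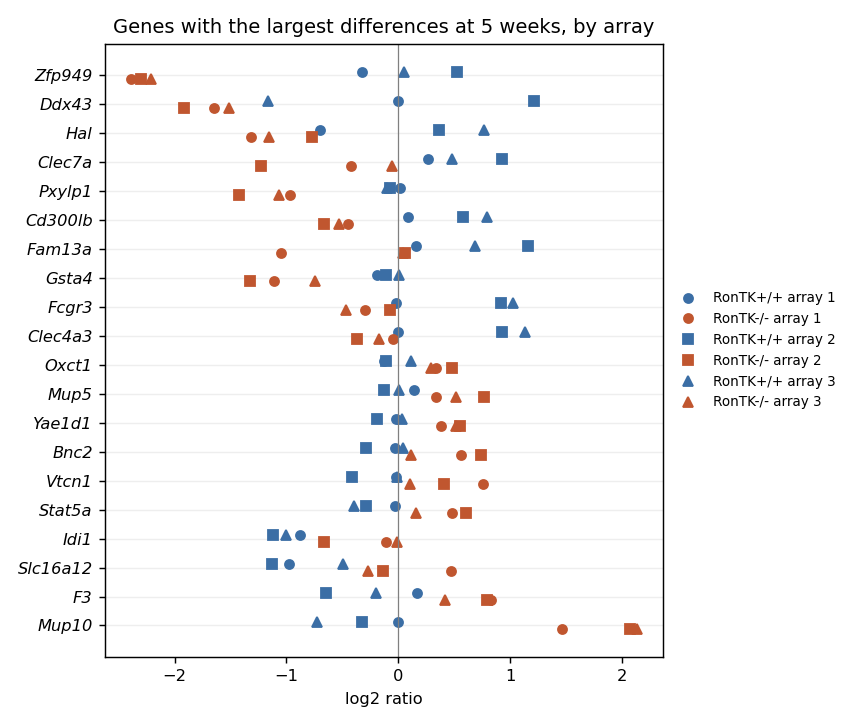
Log2 ratio in each of the 6 arrays for the 10 lowest and 10 highest genes by difference among those with an unadjusted p under 0.01 and no overlap between genotypes, blue for RonTK+/+ and orange for RonTK-/-. Zfp949 and Mup10 show the widest gaps, at -2.38 and 2.24.

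Across all lists, 0 had a called member at 5 weeks. Macrophage, complement and lysosome genes, whose medians were below 0 at 5 weeks, had medians of 0.16, 0.13 and 0.06 at 6 weeks and of 0.07, 0.25 and 0.11 at 7 weeks. B lymphocyte, T lymphocyte and MHC class II lists were below 0 at 5 and 7 weeks, with 7-week medians of -0.62, -0.67 and -0.13, and above 0 at 6 weeks. At 7 weeks the B lymphocyte mean was 0.15 in RonTK+/+ array 2 and -2.20 to -2.02 in the other arrays. At 6 weeks it was -2.18 in RonTK+/+ array 1 and 0.07 to 0.66 in the other arrays. The B lymphocyte list thus had 1 array apart from the rest at each later age. The difference between ages was not called for any gene, as given above.

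**Figure D5:**
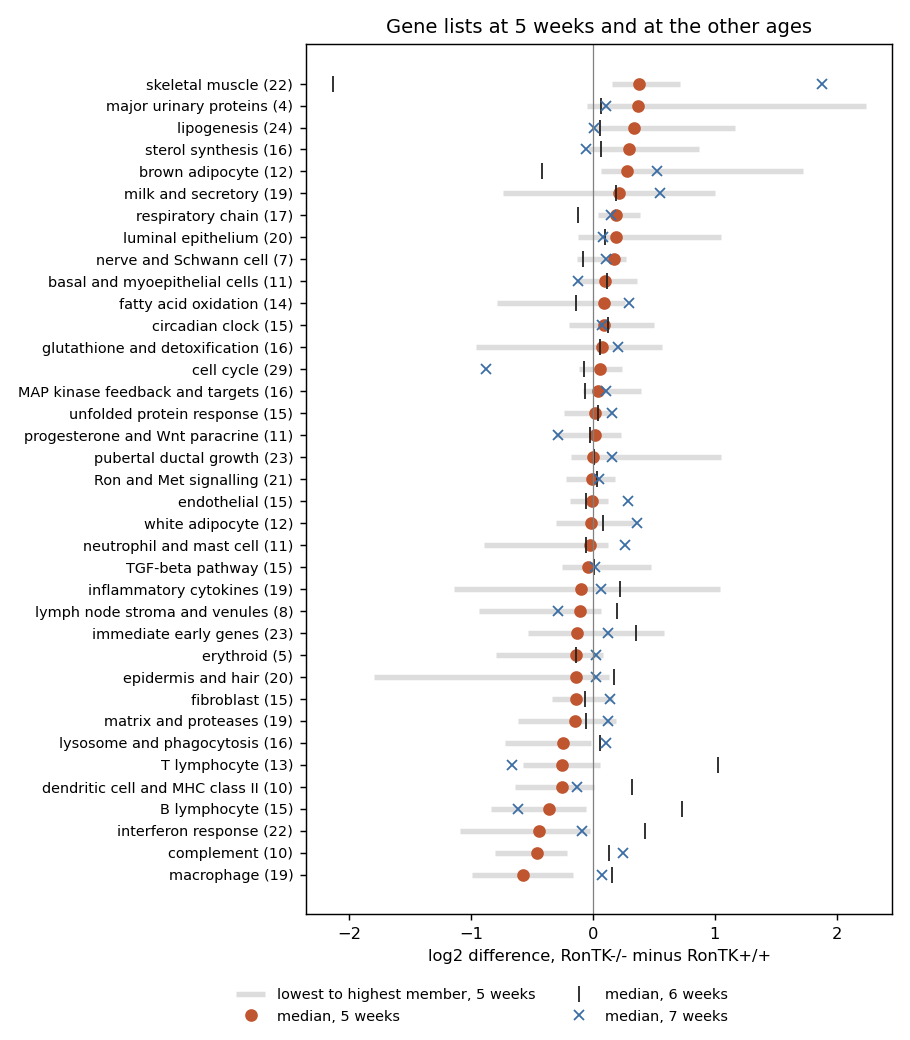
Median log2 difference of each gene list at 5 weeks (filled circle) with the range of its members (grey bar), and its median at 6 weeks (tick) and 7 weeks (cross); the number of genes measured is in brackets. The lowest medians at 5 weeks are those of macrophage, complement and interferon genes, at -0.58, -0.46 and -0.44.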

How the data were processed

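The deposited values are linear ratios for each probe set, made by the authors; the unit was read from the values, since the sources used here give neither the software nor the background correction. Arrays share a median ratio of 1. For 87.37% of probe sets, the 9 RonTK+/+ arrays have their median within 1e-04 of 1. No ratio is under 0.01, and 103 values stand at it. Depth has no counterpart here, and the number of arrays limits the precision.

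Log2 of the ratio was taken without a pseudocount. Of 45101 probe sets, 64 controls were left out, 34945 had 1 gene symbol, 932 several and 9160 none. Of those with 1 symbol, 34741 matched RefSeq (GRCm38.p6) by Entrez number; chromosomes came by that number or else by symbol. A gene is the mean of its probe sets, 18193 genes in all.

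A mean for each group was fitted to 18 arrays with limma 3.58.1 in R 4.3.3 (12 residual and 1.94 prior degrees of freedom; two-sided; Benjamini-Hochberg), after tests on simulated data. Named genes were those called, the 10 lowest and 10 highest with an unadjusted p under 0.01 and no overlap, leaving out gene models without a name, and the 4 members of each list with the smallest p; others named were chosen after their values were seen. The members, lists and rules were chosen with earlier results of these data known. Figures used matplotlib 3.10.9. Alternatives are given in the closing section.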

Additional observations from a re-analysis of the deposited data

Results flagged for a closer look

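The 3 called probe sets without a gene symbol in the platform table stand outside the tests on genes, and differed between genotypes. The differences were -1.92 ± 0.18 (limma, adjusted p = 0.000226), -0.89 ± 0.12 (limma, adjusted p = 0.0175) and -0.85 ± 0.13 (limma, adjusted p = 0.0423). In all 3, every RonTK-/- array lay below every RonTK+/+ array. Their genes are not named here.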

How the results depend on the processing

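The count of 2 called genes differed between fits. It was 0 under quantile normalization, 0 with only the 5-week arrays and 1 (Zfp949) in the pair of muscle-low arrays alone, where 1 array stands against 1, the other groups give the spread and each lone array is assumed to vary like them. With every probe set fitted alone, 13 of 45037 probe sets were called, which is not a count of genes. The count of genes was 6 with the skeletal muscle mean as a covariate and 8 with the B lymphocyte mean. It was 9 with the most variable probe set of each gene. With limma's default array weights it was 3311, but that estimation stopped before it converged and gave RonTK-/- array 1 a weight of 50.8, so the count is not used. With weights by the gene by gene method, chosen after the default result was seen, it was 10. Leaving out each array in turn gave 2 to 2, and both covariates together, an alternative chosen after seeing the data, gave 2. With the replicate number as a block it was 2, Zfp949 and 9330159M07Rik. Residuals of same-numbered arrays correlated at 0.627, -0.822 and -0.758. Those of the 2 muscle-low arrays correlated at 0.889, and those of RonTK+/+ array 3 and RonTK-/- array 2, both low in lymphocyte genes, at 0.815. Because residuals went with tissue makeup, they cannot decide whether the numbers pair the arrays. The cause of the shifts in the count was not tested. Over 19 alternative settings, the difference ranged from -3.05 to -2.16 for Zfp949 and from -1.81 to -0.96 for Pxylp1. These settings include the single pair and the weights that did not converge. They also include median centring, which changed nothing because the arrays already share a median ratio of 1. With 3 arrays a group and no absolute levels, signal over background is unknown.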
